A study of Mus musculus with 26 samples.

Results

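A set of 10 genes commonly used as markers of mesenchymal cells and fibroblasts were followed in mouse motor neuron spheroids: Dcn, Lum, Postn, Fn1, Sparc, Pcolce, Pdgfrb, Thy1, Twist1 and Prrx1. They were chosen by gene symbol, and all 10 of them were found among the 56941 genes of the deposited tables. The spheroids came from HBG3, an embryonic stem cell line with a GFP reporter driven by the promoter of HB9, a transcription factor of motor neurons; the labels give the genotype as heterozygous blastocysts. The labels call the cells nerve cells and name no mesenchymal cell. The stem cells had been expanded on a feeder layer of unstated type before differentiation with retinoic acid and puromorphamine, and CNTF and GDNF were added on day 5. Spheroids of about day 8 were placed on fibrin. RNA was sequenced from 26 libraries in 5 groups. In the actuated array group (n = 4), a magnetic silicone matrix was moved at 4 Hz for 30 min each day. The static array group (n = 4) had the same kind of array without movement. The groups labelled high intensity biochem (n = 6) and low intensity biochem (n = 6) were set against a biochemical control (n = 6). The labels describe muscle-conditioned medium but do not pair it with the words high and low, so these 2 groups are named by intensity only, and that both had such medium and the controls did not is assumed here. The labels do not say whether the libraries of a group came from separate cultures, so p-values measure only the spread between these libraries, which may be technical.

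Mesenchymal cells and fibroblasts lay down the fibrous matrix between other cells. Fibronectin (Fn1), the collagen-binding glycoprotein SPARC, periostin (Postn) and the small proteoglycans decorin (Dcn) and lumican (Lum) are secreted into that matrix, and Pcolce encodes an enhancer of the protease that trims procollagen. Pdgfrb is a growth factor receptor of fibroblasts and of pericytes, the cells that wrap small vessels, and Thy1 is a surface protein of many fibroblasts that is also made by neurons. Twist1 and Prrx1 are transcription factors of embryonic mesenchyme, the former of the basic helix-loop-helix class and the latter a homeodomain protein. Sparc and Fn1 are also made by glial and vascular cells, so these genes are not specific to mesenchyme.

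Shown are the stretches just upstream of the 3 genes with the smallest edgeR p at both intensities, among members with a RefSeq promoter entry. Each is the 250 bases before the transcript start in RefSeq (GRCm38.p6), written 5′ to 3′. Capitals mark CANNTG, the E-box core bound by basic helix-loop-helix proteins, and TAATTA, a core bound by many homeodomain proteins; both were searched on both strands, and the marked matches do not overlap.
Pcolce, chr5:137611405-137611654, minus strand: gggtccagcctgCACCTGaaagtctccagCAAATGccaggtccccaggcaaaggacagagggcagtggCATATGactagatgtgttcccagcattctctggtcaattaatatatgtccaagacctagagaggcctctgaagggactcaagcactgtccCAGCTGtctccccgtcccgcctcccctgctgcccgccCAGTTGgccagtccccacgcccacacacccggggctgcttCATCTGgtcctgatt
Sparc, chr11:55420081-55420330, minus strand: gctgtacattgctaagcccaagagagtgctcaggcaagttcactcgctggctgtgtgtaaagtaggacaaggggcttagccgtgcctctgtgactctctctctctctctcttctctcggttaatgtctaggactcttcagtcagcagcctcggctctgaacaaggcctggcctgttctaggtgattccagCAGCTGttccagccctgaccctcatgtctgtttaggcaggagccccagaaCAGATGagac
Prrx1, chr1:163313651-163313900, minus strand: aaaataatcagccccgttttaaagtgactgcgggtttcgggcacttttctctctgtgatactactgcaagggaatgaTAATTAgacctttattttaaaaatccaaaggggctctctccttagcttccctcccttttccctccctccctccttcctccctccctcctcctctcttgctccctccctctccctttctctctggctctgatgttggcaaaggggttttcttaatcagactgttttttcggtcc
The Pcolce stretch held 6 CANNTG matches, the farthest 238 and the nearest 15 bases before the start. Of 32851 upstream stretches of the same length, 0.274% held at least 6 and 66.2% at least 1. The Sparc stretch held 2 matches, and 31.8% of stretches held at least 2. The Prrx1 stretch held none and had 1 TAATTA, which 4.84% of stretches had. A match is a string of letters and no evidence that a protein binds there. Of the 10 members, 5 had an entry in the RefSeq promoter table, and the stretches of the 2 not printed, Twist1 (1 stretch) and Postn (2), held 0 CANNTG and 0 TAATTA.

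Depth set what could be seen. Total counts per library ran from 7269276 to 9839951 on the actuated array, 613344 to 13162635 on the static array, 243510 to 3971348 at high intensity, 1536 to 3602716 at low intensity and 1457250 to 3771637 in the controls. In 5 libraries there were no more than 1000000 counts on protein-coding genes. These were static array replicate 3, replicates 4 and 5 at high intensity, replicate 6 at low intensity, and control replicate 4, in which rRNA and mitochondrial genes took 78.7% of counts. In those 5 libraries Pcolce had 0 to 3 counts, and low intensity replicate 6 had no count of any member. Levels below are CPM values (counts scaled to library size) after TMM scaling in the other 21 libraries, called the deeper libraries; tests are given both for all 26 libraries and for these 21. A count of 0 there allowed up to 1.93 CPM in the shallowest library and 0.228 CPM in the deepest. These limits cover counting error only.

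Per unit of transcript length, the members spanned a wide range of levels. Mean TPM over the deeper libraries was 169 for Sparc, 162 for Fn1, 36.6 for Thy1, 18.2 for Postn, 7.29 for Pcolce, 4.45 for Dcn, 3.68 for Pdgfrb, 2.97 for Twist1, 1.84 for Prrx1 and 0.666 for Lum. For comparison on the same scale, the neurofilament gene Nefl was at 1660 and the neuronal tubulin Tubb3 at 399. Sparc and Fn1 were close to each other, with TPM ranges of 63.6 to 484 and 42.8 to 424 over these libraries, and their order was within that spread. Lum was at the edge of detection, with no count in 5 of the 21 libraries. Spread within groups also differed: the coefficient of variation of CPM was 15.4% for Thy1, 34.3% for Sparc and 45.3% for Fn1, but 104% for Pcolce and 130% for Lum.

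**Figure D1:**
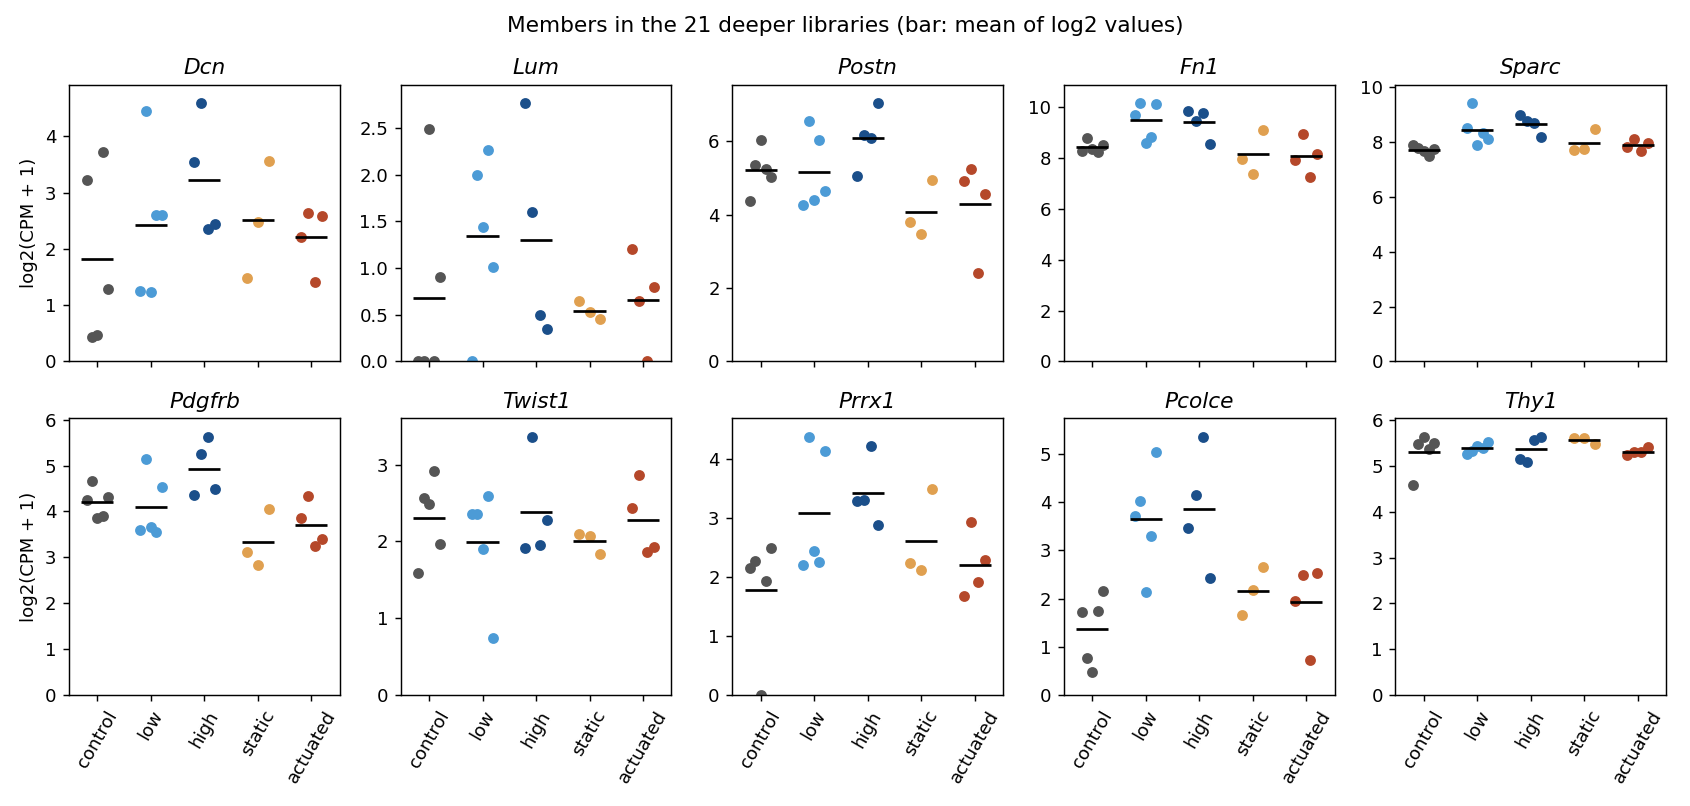
Level of each member in the 21 deeper libraries, as log2(CPM + 1) on the vertical axis, by group on the horizontal axis (low and high are the intensity groups, static and actuated the array groups). Each point is 1 library and each bar the mean of the log2 values; for Pcolce all 4 high intensity points, at 4.41 to 40.1 CPM before the log, lie above the 5 control points, at 0.385 to 3.48 CPM.

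The question in the biochemical arm is whether gene expression in the spheroids differed between the intensity groups and the control. Pcolce (ENSMUSG00000029718) was the 1 member called by edgeR with the low-count filter and all 5 groups in the model, in the deeper libraries and not in all 26. Its level was 2.30, 0.701, 0.385, 2.34 and 3.48 CPM in control replicates 1, 2, 3, 5 and 6. It was 12.2, 15.4, 3.41, 8.85 and 32.0 CPM in low intensity replicates 1 to 5, and 10.1, 16.6, 40.1 and 4.41 CPM in high intensity replicates 1, 2, 3 and 6. Every high intensity library was above every control library, and 4 of the 5 low intensity libraries were, with replicate 3 just inside the control range. On both arrays the gene stayed low: 2.15, 3.50 and 5.30 CPM in static array replicates 1, 2 and 4, and 2.87, 4.60, 0.662 and 4.76 CPM in actuated array replicates 1 to 4.

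By group, Pcolce averaged 1.84 ± 1.28 CPM in the control (SD, n = 5), 14.4 ± 10.8 at low intensity (n = 5) and 17.8 ± 15.7 at high intensity (n = 4). In the deeper libraries, edgeR's quasi-likelihood test with Benjamini-Hochberg adjustment put it 9.26-fold higher at high intensity than in the control, a log2 fold change of 3.21 with a standard error (SE) of 0.69 (adjusted p = 0.0435). At low intensity it was 7.60-fold higher, a log2 fold change of 2.93 (SE 0.67, adjusted p = 0.0420). Both comparisons use the same control libraries. With all 26 libraries the log2 fold changes were 2.86 (SE 0.71, adjusted p = 0.121) and 2.83 (SE 0.71, adjusted p = 0.164), and neither passed. The control values rest on 28 counts in all, against 203 at low and 195 at high intensity.

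The size of the Pcolce difference held when any 1 deeper library was left out, with log2 fold changes of 2.44 to 3.60 at high and 2.40 to 3.31 at low intensity, but the call did not. The high intensity call was lost on leaving out any of 12 of the 21 libraries: control replicates 1, 2, 3 and 5, high intensity replicates 1, 2 and 3, actuated array replicates 1, 2 and 4, and static array replicates 1 and 2 (adjusted p 0.0503 to 0.210). The low intensity call was lost on leaving out any of 13: control replicates 1, 2, 3 and 5, low intensity replicates 1, 2 and 5, high intensity replicate 1, actuated array replicates 1, 2 and 4, and static array replicates 1 and 2 (adjusted p 0.0508 to 0.131). With limma's voom and quality weights on the deeper libraries, Pcolce did not pass (adjusted p = 0.455 at high and 0.405 at low intensity). With all 26 libraries it passed by edgeR without the low-count filter (adjusted p = 0.00676 and 0.0118) and, at high intensity, by DESeq2 (adjusted p = 0.0331).

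Against the background of all genes, 1 of the 10 members was called at high intensity in the deeper libraries, where 0.462% of 14730 fitted genes were called, and 1 at low intensity, where 0.597% were. With all libraries 0 members were called, beside 0.0402% and 0.0268% of 14907 genes. At an unadjusted p under 0.05 the deeper libraries gave 5 members at high intensity (Fn1, Sparc, Pdgfrb, Prrx1 and Pcolce) and 4 at low intensity (the same without Pdgfrb), where 15.9% and 15.2% of all genes reached that level. With all libraries there were 3 and 4, against 7.04% and 5.23%. The log2 fold change was above 0 for 10 of 10 members at high intensity (50.3% of all genes were) and 9 of 10 at low intensity (49.1%), and the members' median was 0.98 and 0.67 where that of all genes was close to 0 (0.0033 and -0.0083). With all libraries 7 of 10 were above 0 in each comparison, beside 45.6% and 45.2% of genes, with medians of 0.82 and 0.54.

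Among the secreted matrix proteins, Sparc (ENSMUSG00000018593) came closest to the threshold. Its level was 237, 219, 201, 179 and 212 CPM in control replicates 1, 2, 3, 5 and 6, a narrow range. It was 498, 427, 414 and 287 CPM in high intensity replicates 1, 2, 3 and 6, each above every control library. At low intensity it was 365, 680, 234, 315 and 275 CPM in replicates 1 to 5, where replicate 3 fell inside the control range. The log2 fold change in the deeper libraries was 0.95 at high (adjusted p = 0.0538) and 0.83 at low intensity (adjusted p = 0.0610), short of the threshold. DESeq2 on the same libraries called it in both comparisons (adjusted p = 0.0192 and 0.0340), and with all libraries at high intensity only (adjusted p = 0.00502, and 0.0891 at low intensity). The static array gave 210, 210 and 348 CPM, and the actuated array 224, 273, 200 and 249 CPM, all 4 within the static range or just below it.

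Fn1 (ENSMUSG00000026193) split the low intensity libraries into high and low values. It was 310, 446, 324, 301 and 362 CPM in the controls. Low intensity replicates 1, 2 and 5 had 827, 1148 and 1108 CPM, while replicates 3 and 4 had 389 and 456 CPM. High intensity replicates 1, 2 and 3 had 935, 712 and 874 CPM, and replicate 6, at 371 CPM, lay within the control range. The mean was 349 ± 59.3 CPM in the control, 786 ± 355 at low and 723 ± 253 at high intensity, and the log2 fold changes of 1.17 and 1.05 did not pass (adjusted p = 0.0818 and 0.131).

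The other matrix genes gave no separation. Postn was 75.1 ± 40.7 CPM at high intensity, 43.7 ± 33.1 at low intensity and 38.5 ± 16.4 in the control, and its highest library was high intensity replicate 6 at 130.3 CPM, the replicate in which Fn1, Sparc and Pcolce were lowest of their group. Dcn was 10.5 ± 8.89 CPM at high intensity, 6.78 ± 8.15 at low intensity and 4.54 ± 5.41 in the control. Lum had 0 to 23 counts per library and group means of 0.46 to 2.13 CPM. Dcn and Lum, which RefSeq lists as neighbouring protein-coding genes, showed no clear relation. The control libraries with the most Dcn, replicates 1 and 5, had no count of Lum. Low intensity replicate 2, with the most Dcn of its group, was above its group mean for both. Within groups, Pearson's r was 0.102 over the 21 deeper libraries (adjusted permutation p = 0.822), and Lum was too low for a firm reading. For Dcn the direction at high intensity was not stable, since its log2 fold change was 1.23 in the deeper libraries and -0.0014 with all libraries. Control replicate 4, one of the shallow libraries, had 15 counts of Dcn and 1 of Pcolce.

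Of the surface proteins, Pdgfrb (ENSMUSG00000024620) had the smallest p of the members between the intensity groups. It was 19.4, 36.9, 48.6 and 21.5 CPM in high intensity replicates 1, 2, 3 and 6. It was 11.1, 34.5, 11.6, 10.7 and 22.1 CPM in low intensity replicates 1 to 5, so that the ranges overlapped. The control libraries lay between 13.5 and 24.2 CPM. High against low intensity gave a log2 fold change of 0.79 in the deeper libraries (SE 0.37, adjusted p = 0.620 by edgeR) and 0.64 with all libraries (adjusted p = 1.00). No member was called between high and low intensity in either fit, nor was any other gene (0% of genes), and 1 of 10 members had an unadjusted p under 0.05 in the deeper libraries, against 7.68% of genes, and 0 with all libraries, against 2.91%. DESeq2 and limma called none.

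In CPM, Thy1 had nearly the same mean level in these 3 groups. Its mean was 40.1 ± 9.93 CPM in the control, 41.0 ± 2.78 at low and 40.9 ± 8.05 at high intensity. The log2 fold changes in the deeper libraries were 0.03 at high and 0.04 at low intensity, with 95% intervals from the residual degrees of freedom of -0.34 to 0.41 and -0.32 to 0.39. The upper ends of these intervals lay below the log2 fold changes estimated for Sparc. The SE behind them was derived from the test's F value and can be unreliable near a change of 0. With all libraries the estimates were -0.48 and -0.24 with wider intervals.

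Of the transcription factors, Prrx1 (ENSMUSG00000026586) was higher at both intensities in the mean but did not pass. It was 3.45, 3.85, 0, 2.81 and 4.64 CPM in control replicates 1, 2, 3, 5 and 6. High intensity replicates 1, 2, 3 and 6 had 8.83, 8.92, 17.6 and 6.34 CPM, all above the controls. Low intensity replicates 2 and 5 had 19.9 and 16.7 CPM, while replicates 1, 3 and 4 had 3.60, 4.43 and 3.79 CPM, inside the control range. The log2 fold changes in the deeper libraries were 1.78 (adjusted p = 0.164) and 1.69 (adjusted p = 0.176). Twist1 stayed between 0.680 and 9.32 CPM in all 21 libraries, with log2 fold changes of 0.17 and -0.33. In all, 3 of 10 members (Sparc, Prrx1 and Pcolce) had every high intensity library above every control library, as did 2.07% of genes, and none had every low intensity library above every control library, as did 1.28% of genes.

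**Figure D2:**
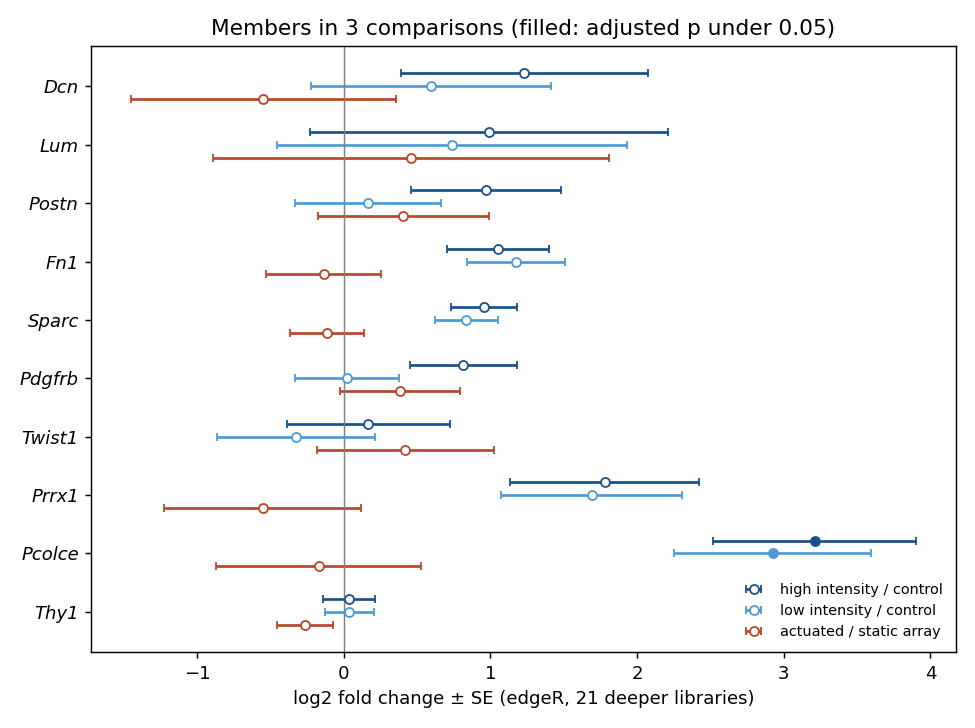
Log2 fold change of each member (horizontal axis) with its standard error as the bar, from edgeR on the 21 deeper libraries, for each intensity group against the control and for actuated against static array. Filled points passed an adjusted p of 0.05: Pcolce at 3.21 and 2.93 in the intensity comparisons, and no member for actuation.

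The mechanical arm asks what movement of the array added to the array itself. No member was called between actuated and static arrays, with all libraries or with the deeper ones, and no other gene was either (0% of genes). At an unadjusted p under 0.05 there were 0 members in both fits, against 3.86% of genes with all libraries and 0.38% with the deeper ones. DESeq2 and limma called none. The smallest p was that of Prrx1 with all libraries, where the log2 fold change was -1.47 (SE 0.79, adjusted p = 1.00 by edgeR). Without static array replicate 3 alone, a shallow library with 21 counts of Prrx1, it was -0.56 (SE 0.75), and in the deeper libraries -0.55 (SE 0.67). The levels there were 3.73, 3.35 and 10.2 CPM on the static array and 2.22, 6.67, 2.76 and 3.91 CPM on the actuated array, so the groups overlapped.

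Matrix genes on the arrays varied with the library more than with movement. Fn1 was 250, 166 and 556 CPM in static array replicates 1, 2 and 4, and 245, 496, 153 and 282 CPM in actuated array replicates 1 to 4. Static array replicate 4 was the highest of its group for Fn1, Sparc, Postn, Dcn, Pdgfrb, Prrx1 and Pcolce. Actuated array replicate 3 was the lowest of its group for Fn1, Sparc, Postn, Dcn, Lum, Pdgfrb, Twist1 and Pcolce, with Postn at 4.30 CPM against 22.5 to 36.8 CPM in the other 3 libraries. Thy1 was the 1 member without overlap: 48.1, 48.3 and 43.8 CPM on the static array and 36.8, 38.3, 38.6 and 41.9 CPM on the actuated array, where 2.23% of genes had every actuated library below every static one. Its log2 fold change was -0.26 (SE 0.19) in the deeper libraries.

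The array libraries were also set against the biochemical control, a comparison in which platform and any other handling difference cannot be told apart. No member was called in either fit (0.0134% of genes with all libraries, 0.713% with the deeper ones), and 1 member in each had an unadjusted p under 0.05 (5.27% and 12.6% of genes). DESeq2 and limma's voom called none. With all libraries the smallest p was that of Prrx1, with a log2 fold change of 1.96 (SE 0.75, adjusted p = 0.674 by edgeR), which was 1.04 without static array replicate 3 alone and 0.93 in the deeper libraries. With the deeper libraries it was that of Pdgfrb, at 9.77 ± 5.05 CPM on the static array (n = 3) and 17.7 ± 4.33 in the control (n = 5), a log2 fold change of -0.87 (SE 0.41, adjusted p = 0.376 by edgeR). On the actuated array Pdgfrb was 12.7 ± 4.83 CPM.

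Whether actuation and the intensity groups had different effects on the members was tested as an interaction. No member passed for high or for low intensity in either fit. In both fits 0% of genes passed. At an unadjusted p under 0.05 there were 4 members for each intensity in the deeper libraries (Fn1, Sparc, Prrx1 and Pcolce), beside 6.69% and 6.55% of genes, and 2 with all libraries, beside 6.57% and 3.98%. DESeq2 and limma called 0 members in both. The smallest p there was that of Pcolce in both tests. Its actuation effect minus its high intensity effect was -3.38 on the log2 scale (SE 0.98, adjusted p = 0.631 by edgeR), and minus its low intensity effect -3.10 (SE 0.97, adjusted p = 0.645). With all libraries it was Prrx1, at -3.50 (SE 1.06, adjusted p = 0.173) and -3.21 (SE 1.06, adjusted p = 0.501).

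The members were also compared with each other from library to library. For this, the group mean of log2(CPM + 1) was subtracted in each of the 21 deeper libraries, so that differences between groups play no part, and the 45 pairs were tested by permuting within groups. In all, 6 pairs had a Benjamini-Hochberg adjusted permutation p under 0.05 by Pearson's r, all positive and all among Fn1, Sparc, Pdgfrb, Prrx1 and Pcolce. The closest pair was Pdgfrb and Prrx1, with r = 0.796 (permutation p = 0.00014, adjusted 0.0063) and Spearman's rho = 0.794 (permutation p = 0.00049, adjusted 0.011). Without the 2 most extreme libraries, low intensity replicate 2 and static array replicate 4, r was 0.725. Prrx1 and Pcolce had r = 0.680 and rho = 0.738 (adjusted permutation p = 0.018 and 0.011), and r = 0.694 without the 2 most extreme.

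Fn1 was in the other 4 pairs. Fn1 and Sparc had r = 0.723 and rho = 0.738 (adjusted permutation p = 0.0229 and 0.0398), and r = 0.626 without the 2 most extreme. Fn1 with Pdgfrb, Pcolce and Prrx1 had r = 0.745, 0.659 and 0.658, and passed by r but not by rho (adjusted permutation p = 0.0788, 0.054 and 0.0512). Dcn, Postn, Lum, Twist1 and Thy1 were in no pair that passed. Thy1 had r from -0.54 with Dcn and -0.364 with Sparc to 0.06 with Lum and 0.295 with Postn, none of which passed. All values of a library share its RNA, its depth and its scaling, and in bulk RNA more cells of a type and more RNA per cell cannot be told apart.

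**Figure D3:**
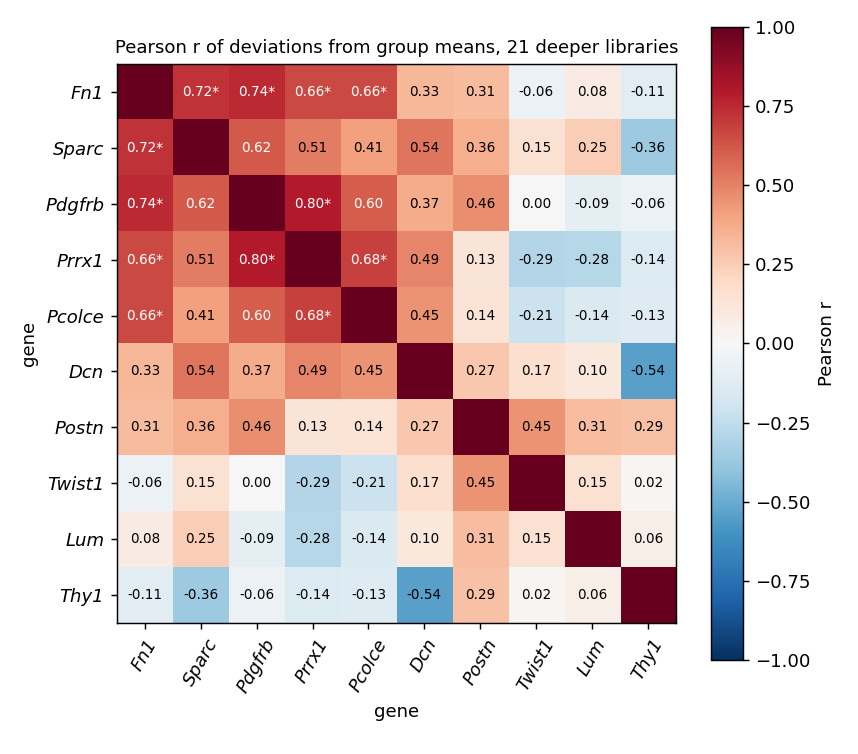
Pearson correlation between members over the 21 deeper libraries, after subtracting each group's mean of log2(CPM + 1); both axes list the 10 genes and the colour scale runs from -1 to 1. Stars mark the 6 pairs with an adjusted permutation p under 0.05. They fall among Fn1, Sparc, Pdgfrb, Prrx1 and Pcolce, where not every pair passed. No pair with Dcn, Postn, Twist1, Lum or Thy1 passed.

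Averaged over the 10 members and expressed in SDs, the deviation from the group mean was highest in low intensity replicate 2 (1.31) and lowest in actuated array replicate 3 (-0.951). The former had 2567389 counts and the latter 9112143. All genes outside the set with a mean of at least 5 CPM, 11768 in number, were ranked by the correlation of their deviations with this average over the same 21 libraries. The 10 most alike were Igfbp7 (r = 0.907), Mmp2 (0.899), Acta2 (0.897), Fstl1 (0.879), Tnc (0.87), Loxl2 (0.864), Tpm2 (0.855), Cdkn1a (0.854), Ltbp2 (0.846) and Col1a1 (0.845). These are the top of a long ranking and are given as a description. The median r was 0.71 for 22 ranked genes of the wider mesenchyme list described next and 0.802 for 7 ranked genes of smooth muscle and pericytes, together called mural cells. It was -0.263 for 11 neuronal genes, -0.321 for 8 genes of radial glia and astrocytes, and -0.0209 for all ranked genes.

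A wider list of 30 mesenchymal genes, which holds fibrillar collagens, collagen cross-linking enzymes, fibrillin and mesenchymal transcription factors and none of the 10 members, was read the same way. In the deeper libraries 2 of 25 fitted genes were called at high intensity, both higher: Bgn, a small proteoglycan related to decorin, with a log2 fold change of 2.82 (SE 0.63, adjusted p = 0.0435), and Mmp2, a gelatin-cleaving protease, at 2.63 (SE 0.60, adjusted p = 0.0468). Of all genes 0.462% were called in that comparison. At an unadjusted p under 0.05 there were 18 of the list, all higher, beside 15.9% of all genes. Of the 25, 23 were above 0, beside 50.3% of all genes, with a median log2 fold change of 1.19. At low intensity 0 were called and 8 had an unadjusted p under 0.05, beside 0.597% and 15.2% of all genes, and the list's median was 0.85. The most abundant genes of the list were Col1a1, Fstl1, Col3a1 and Col1a2. Col1a1, the main chain of type I collagen, was 215 ± 121 CPM in the control, 428 ± 521 at low and 692 ± 381 at high intensity, and 183 ± 190 and 134 ± 96.3 on the static and actuated arrays. With all libraries no gene of the list was called. There 13 at high and 6 at low intensity had an unadjusted p under 0.05, beside 7.04% and 5.23% of all genes. The list's medians were 1.03 and 0.83.

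The summed level of each list shows how the members sit among the markers of other cells. The 10 members together, of which Fn1 and Sparc made up most with means of 510.2 and 298 CPM over these libraries, had a median of 661 CPM in the control (range 595 to 782), 1280 at low (711 to 2057) and 1428 at high intensity (878 to 1558), 540 on the static array (456 to 1023) and 593 on the actuated array (412 to 887). The wider mesenchyme list ran from 843 to 1711 CPM in the control, 673 to 4159 at low and 1462 to 3939 at high intensity, 610 to 1665 on the static and 467 to 1386 on the actuated array. Of its 30 genes 3, S100a4, Tcf21 and Aspn, had no count in any control library. These 3 had only 168, 44 and 8 counts over all the deeper libraries. The control libraries were shallower than the deeper array libraries, so their absence may reflect depth. The high intensity libraries thus lay above the control libraries for the members, without overlap, and overlapped them for the wider list.

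All 11 genes of the mural list had counts in every group, and its sum was 285 to 409 CPM in the control, 217 to 1776 at low and 263 to 1324 at high intensity, 172 to 980 on the static and 160 to 365 on the actuated array. None of the 11 was called at either intensity. At high intensity 4 had an unadjusted p under 0.05 and at low intensity 1, beside 15.9% and 15.2% of all genes, and the median log2 fold change was 1.40 and 1.06. Acta2, smooth muscle actin and the most abundant of them, was 112 ± 19.6 CPM in the control, 236 ± 255 at low and 296 ± 159 at high intensity. The part of mural cells in the levels of the members was not tested.

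The markers of neurons leaned the other way. The 11 neuronal genes summed to 7619 to 9167 CPM in the control, 6883 to 8467 at low and 5039 to 7833 at high intensity, and all 11 had log2 fold changes below 0 in both comparisons, with medians of -0.30 at high and -0.28 at low intensity. Of these, 1 was called, the RNA-binding protein gene Elavl4 at low intensity in the deeper libraries, which fell by 0.59 on the log2 scale (SE 0.13, adjusted p = 0.0370). With all libraries Elavl4 did not pass (adjusted p = 0.930). On the arrays the sum was 8287 to 10787 CPM when static and 9510 to 10809 when actuated. Of 9 genes of radial glia and astrocytes, Vim and Nes, intermediate filament genes of neural progenitors and also of mesenchymal cells, rose at low intensity by 1.01 (SE 0.22, adjusted p = 0.0352) and 1.43 (SE 0.33, adjusted p = 0.0443) in the deeper libraries. With all libraries neither passed (adjusted p = 0.991 for Vim and 0.582 for Nes). In the deeper libraries 7 of the 9 were above 0 at low intensity and 5 at high intensity, with medians of 0.15 and 0.08. Of all genes 49.1% and 50.3% were above 0 in these comparisons. At low intensity the 2 calls stood beside 0.597% of all genes. There 1 of the 9 was lower at an unadjusted p under 0.05, a level that 15.2% of all genes reached in either direction. The glial list summed to 2964 to 4045 CPM in the control, 3628 to 6309 at low and 3484 to 4450 at high intensity. It summed to 4619 to 5363 CPM on the static and 4130 to 5532 on the actuated array, above every control library. For static array against control, 0 of the 9 were called by edgeR in the deeper libraries, beside 0.713% of all genes. There 4 were higher at an unadjusted p under 0.05, a level that 12.6% of all genes reached in either direction. CPM is a share of each library, so a higher level of some genes lowers that of others, and the part of each cell type in these shifts was not tested.

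**Figure D4:**
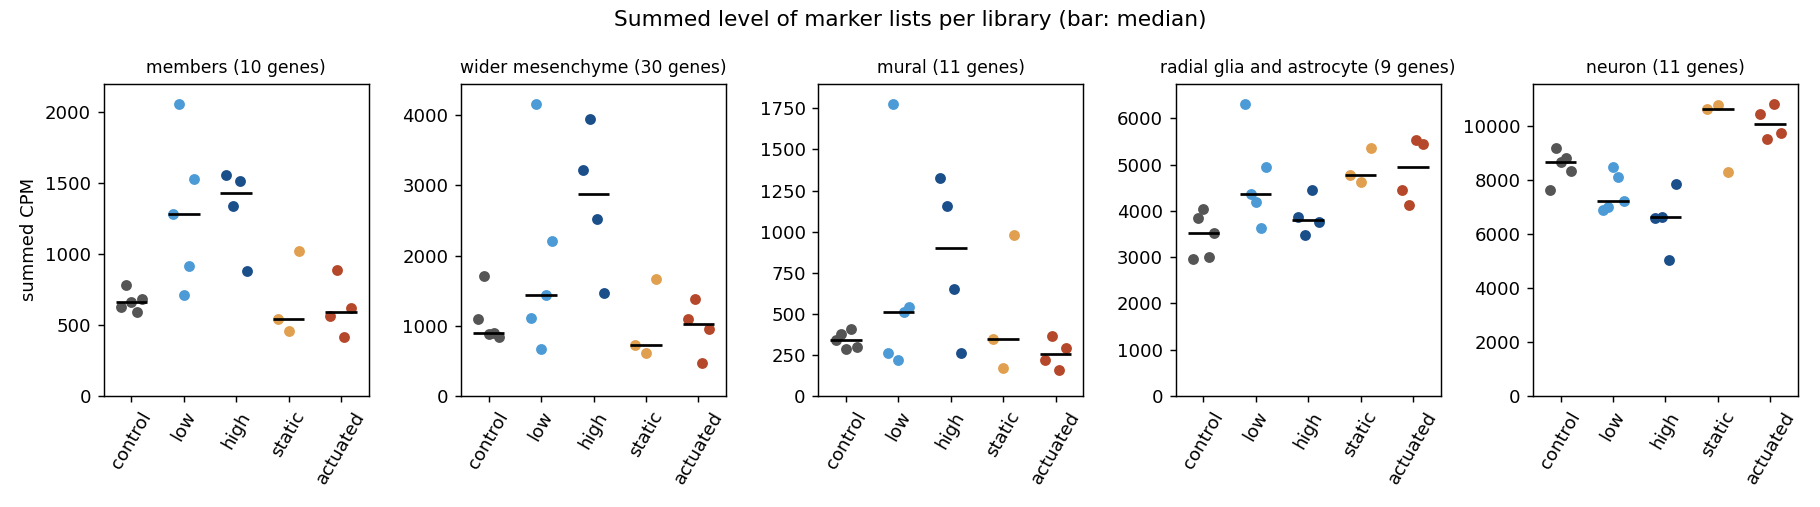
Summed CPM per library (vertical axis) of the members and of 4 other marker lists, by group, in the 21 deeper libraries; each point is 1 library and each bar the group's median. The members' sum has a median of 1428 CPM at high intensity and 661 CPM in the control, while the neuronal sum has medians of 6609 and 8646 CPM.

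The other lists reported here had low levels. Endothelial, cartilage and bone, skeletal muscle, paraxial mesoderm, pluripotent, endoderm and leukocyte lists each had group medians of at most 26.5 CPM summed over the list. Skeletal muscle genes summed to a median of 25.0 CPM in the control (range 0 to 38.4), 11.2 at low (3.07 to 34.8) and 14.9 at high intensity (9.09 to 57.6), so the ranges overlapped. The mean ran the other way at high intensity, at 24.1 CPM against 18.7 in the control. There 3 of 3 fitted muscle genes had log2 fold changes above 0, 1 with an unadjusted p under 0.05. Of all genes 50.3% were above 0 and 15.9% had such a p. The muscle sum rested mostly on Ttn, with a mean of 10.8 CPM over the deeper libraries. The next highest was Acta1, at 1.27 CPM. Few genes of these lists could be tested: in the deeper libraries 3 of 8 endothelial, 4 of 7 cartilage and bone, 3 of 10 skeletal muscle, 3 of 7 paraxial mesoderm, 1 of 7 pluripotent, 3 of 7 endoderm and 2 of 5 leukocyte genes were fitted. None of these fitted genes was called in either intensity comparison. Median sums in the control and at high intensity were 12.6 and 26.5 CPM for endothelial genes. They were 3.85 and 14.6 CPM for endoderm genes, and both ranges overlapped. Median log2 fold changes at high intensity were 1.20 for endothelial, 1.39 for endoderm, 1.02 for paraxial mesoderm and 0.79 for skeletal muscle genes. They were 0.13 for leukocyte, -0.19 for cartilage and bone and -0.39 for pluripotent genes.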

How the data were processed

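RNA was converted to libraries by a low-input method with removal of rRNA fragments, and read as pairs of 50 bases, per the labels' protocols. The authors deposited estimated counts (expected counts, which are whole numbers here and unscaled) and TPM values, per the file headers. The submitters' processing notes name BWA 0.7.12-r1039, STAR, Salmon, bedtools 2.25.0 and the builds mm10, hg19 and GRCm39, without saying which made these tables; whether counting used strand is not given in the sources used here.

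Counts were rounded and fitted with edgeR 4.0.16 (R 4.3.3): all 26 libraries in 1 model with 1 term per group, filterByExpr (14907 genes), TMM scaling, quasi-likelihood F-test and Benjamini-Hochberg adjustment over all fitted genes at 0.05. The same fit on the 21 libraries with over 1000000 protein-coding counts (14730 genes) was set beside it. The common dispersion was 0.251 and 0.0923. Each edgeR SE is the absolute log2 fold change divided by the square root of the test's F value. It can be unreliable near a change of 0, as for Dcn at high intensity with all libraries (-0.0014, SE 6.51). No pair of libraries agreed within sampling noise (325 pairs, chi-square per degree of freedom 4.74 to 646). Correlations between members were tested with 100000 permutations within groups; the ranking of other genes has no test. DESeq2 1.42.0, limma 3.58.1 (voom, and log2(TPM + 1) or log2(TPM + 0.1)), other filters and scalings, a replicate block and leaving out each library were tried as well. The edgeR script was tested on simulated counts.

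The members, the lists and the deeper libraries were chosen with earlier results of these data known. All members were named with levels; fold changes with SE were given for members called in either fit or of smallest p in a comparison. Of each other list, the most abundant genes and those called were eligible to be named, and outside the lists the 10 genes most like the members' average. The result of 1 further marker list is not reported here.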

Additional observations from a re-analysis of the deposited data

Results flagged for a closer look

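Of 40 sets of a member and a group with 4 or 5 deeper libraries, 3 held a library that stood far from the rest by Dixon's ratio. For normally distributed values chance gives about 1 in 20. The ratio was taken on CPM without a log, and low counts need not follow that rate. Dcn in low intensity replicate 2 was 21 CPM, with the nearest library at 5.1 CPM. Lum in control replicate 3 was 4.61 CPM, with the nearest at 0.869 CPM. Twist1 in high intensity replicate 2 was 9.32 CPM, with the nearest at 3.86 CPM. None of the 3 genes was called in any comparison with either set of libraries.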

How the results depend on the processing

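With all 26 libraries 0 members were called in each of the 7 comparisons. For high intensity against control the number became 1 without the low-count filter, 2 with DESeq2 (Sparc and Pcolce), 1 in the deeper libraries, 2 there with DESeq2, 1 with DESeq2 size factors, 5 with limma on log2(TPM + 1) and 1 (Sparc) with only the groups compared; leaving out 1 library gave 0 with all libraries and 0 to 2 with the deeper ones. For low intensity it became 1 without the filter, 1 in the deeper libraries, 2 there with DESeq2, 1 with DESeq2 size factors and 5 with limma on log2(TPM + 1); leaving out 1 library gave 0 to 3. In the deeper libraries log2(TPM + 1) moved the median of all genes by 0.53 and 0.64 on the log2 scale in these 2 comparisons. It moved that median by 0.50 for static array against control, where it called 1 member. With all libraries these medians were 0.28, 0.19 and 0.74. The interaction of actuation with high intensity gave 1 (Prrx1) without the filter, and 0 to 1 on leaving out 1 library, the 1 being without static array replicate 2. The relation of members gave 3 pairs in place of 6 on log2(TPM + 1). Which step of each setting moved these numbers was not tested.

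The alternatives were run for 21 pairs of a member and a comparison, and of these 911 recomputed fold changes 5 had another sign than with all libraries, none of them called. Members outside those pairs also changed sign between all and deeper libraries, among them Dcn, Thy1 and Twist1 at high intensity and Fn1, Sparc and Pcolce between the arrays, none called. Prrx1 between arrays was 0.15 in the deeper libraries without static array replicate 4. Pdgfrb, static array against control, was 0.30 on log2(TPM + 1) and 0.74 on log2(TPM + 0.1). On log2(TPM + 0.1) the interaction of actuation with low intensity was 0.074 for Fn1 and 0.17 for Sparc. Deviations from the group means in same-numbered libraries of different groups had correlations of -0.289 to 0.269. Libraries of different numbers were not compared in this way, so whether the numbers pair libraries is not settled by these values. The replicate block called 0 members in all 7 comparisons, with all and with the deeper libraries. Depth limits the low members: control libraries held 28 counts of Pcolce, 15 of Lum and 45 of Prrx1.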
